A study of Mus musculus with 18 samples.

Results

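Tumors given a STING agonist inside vesicles were compared with tumors given 200 times as much of the same agonist free in solution. The 4 tumors of this comparison, out of 18 in the series, were those whose labels give these treatments: 2 received exoCDN2 (0.1 µg) once and 2 received CDN2 (20 µg) once. All tumors were B16F10, a mouse melanoma line grown under the skin of C57BL/6 mice, and each was taken 24 h after the IT (intratumoral) injection. CDN2 is a cyclic dinucleotide (labelled CL656), and exoCDN2 is CDN2 loaded into EVs (extracellular vesicles) from HEK293 cells, a human kidney line, engineered to overexpress the vesicle surface protein PTGFRN. Tumors given PBS (n = 2), unloaded EVs (n = 2) or CDN2 (100 µg, n = 2) once served as references. Because 1 arm had vesicles and a low amount and the other had no vesicles and a high amount, the effect of the vesicle and that of the amount cannot be told apart. No tumors given free CDN2 at 0.1 µg were analysed here.

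STING is a sensor of cyclic dinucleotides that turns on IFN-β, a type I interferon, and NF-kB target genes such as those for cytokines and chemokines. Interferon then induces a broad set of antiviral genes in most cells it reaches. Endothelial cells, which line blood vessels, also carry STING, and high amounts of STING agonists are known for vascular damage in tumors, whereas inflamed endothelium displays selectins that catch leukocytes from the blood.

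RNA of the whole tumor was measured by RSEM's expected counts per gene, with 38671428 to 48465555 counts in each of the 10 tumors given 1 dose. Values below are CPM (library-normalized counts, scaled by TMM), and the ratio is exoCDN2 over CDN2 (20 µg) unless a reference is named. A gene was called at an adjusted p under 0.05 (edgeR's quasi-likelihood test, Benjamini-Hochberg over all genes) and a ratio over 2. With 2 tumors against 2, an exact two-sided permutation test of 1 gene cannot go below 0.333, so all calls borrow the spread of all 8 labelled groups. The labels do not say whether tumors of a group came from separate mice in separate experiments, so p-values measure only the spread between tumors. That spread is taken over all 8 groups, including groups given 2 doses. The melanocyte genes of the B16F10 line were at like levels in both arms: Mlana, a melanosome protein, stood at 637 and 601 CPM with exoCDN2 and at 672 and 699 CPM with CDN2. Of 17 melanocyte genes tested, 0 were called, where 0.201% of all genes were called higher and 0.408% lower. For 13 of the 17, the 95% confidence interval of the ratio lay within 2-fold either way, against 52.1% of all genes tested. The median log2 ratio of the 17 was -0.12. The pair of CDN2 (20 µg) tumors differed from each other by more than 2-fold at 9.20% of genes and the exoCDN2 pair at 4.97%. In the other groups of the fit this share ran from 3.85% (PBS, 1 dose) to 27.1% (CDN2 at 20 µg, 2 doses).

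Of 16927 genes tested, 34 were called higher with exoCDN2 (0.201%) and 69 lower (0.408%). All 103 adjusted p-values lay close to the threshold, the smallest being 0.0339, while 3300 genes had an unadjusted p under 0.05. Leaving out any 1 of the 4 tumors left 0 or 1 gene called. Fitted on the 5 groups given 1 dose, the same comparison called 684 genes, 434 higher and 250 lower, of which 100 were among the 103. DESeq2 called 195 higher and 188 lower, so the balance of the 2 directions depended on the fit, and the replicate block and the difference relative to the carriers (unloaded EVs for exoCDN2, PBS for CDN2) called 0. In the other direction, 8816 genes (52.1%) had a confidence interval inside 2-fold and are described as alike below. The median log2 ratio of all genes was 0.00.

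**Figure D1:**
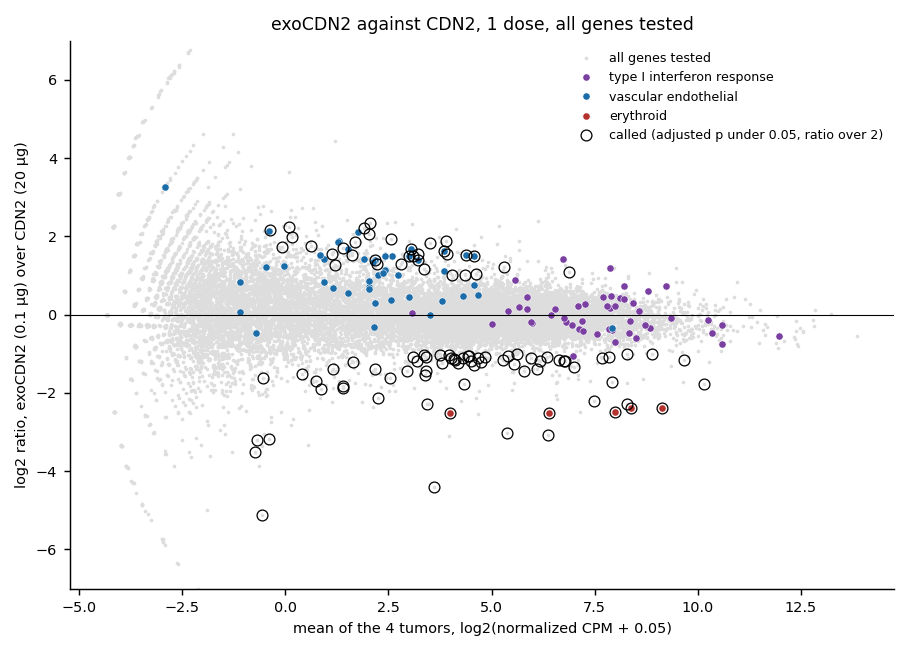
Each point is 1 of the genes tested, placed by its mean level over the 4 tumors (x axis, log2 of normalized CPM plus 0.05) and by its log2 ratio of exoCDN2 (0.1 µg) over CDN2 (20 µg) (y axis); 7 genes lie outside the plotted range. Vessel genes gather above 0, the erythroid genes lie near -2.48, and type I interferon genes spread around -0.09.

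Most type I interferon genes rose over PBS in both arms. Of 49 interferon-stimulated genes tested, 0 differed by the call between exoCDN2 and CDN2, and 29 (59.2%) were alike. Both counts are near those of all genes tested, of which 0.201% were called higher, 0.408% lower and 52.1% alike. The median log2 ratio of the list was -0.09, with 24 of the 49 positive, and turned to 0.49 with 41 positive relative to the carriers. Against PBS, 41 of the 49 were called higher with exoCDN2 (background 2.2%) and 41 with CDN2 (background 2.26%), with medians of 2.73 and 2.41 on the log2 scale. Both comparisons share the same PBS tumors. The median with unloaded EVs against PBS was -0.46.

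Isg15, a ubiquitin-like antiviral protein, stood at 308 and 309 CPM with exoCDN2, at 285 and 409 CPM with CDN2 and at 30.8 and 31.7 CPM with PBS. The exoCDN2 tumors lay between the CDN2 tumors, and all of these were far above both PBS tumors. The log2 ratio of Isg15 was -0.17 ± 0.23 (SE, n = 2 against 2), with an interval from -0.67 to 0.33 and an adjusted p of 0.716 by edgeR's quasi-likelihood test. Relative to PBS it was 9.88-fold higher with exoCDN2 and 11.1-fold higher with CDN2. Usp18, the protease that removes ISG15 and damps interferon receptor signalling, stood at 353 and 412 CPM with exoCDN2, at 306 and 320 CPM with CDN2 and at 21.9 and 20.9 CPM with PBS. Its log2 ratio was 0.29 (interval -0.15 to 0.72), so that the small lead of exoCDN2 did not pass the test. Ifit3, which binds viral RNA complexes and has a near-identical copy that can share its reads, stood at 1364 and 1419 CPM with exoCDN2 and at 1415 and 1935 CPM with CDN2, a log2 ratio of -0.27. Mx2, an interferon-induced GTPase, had a log2 ratio of -0.09 and was 21.3-fold and 22.6-fold above PBS. The intervals of Isg15, Usp18, Ifit3 and Mx2 all lay inside 2-fold.

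Not every member of the list was equally close. Eif2ak2, the double-stranded RNA kinase PKR, stood at 314 and 344 CPM with exoCDN2 and at 150 and 137 CPM with CDN2, and its log2 ratio of 1.20 had an adjusted p of 0.115 by edgeR. Zbp1, a sensor of Z-form nucleic acid, leaned the other way at 66.3 and 97.1 CPM with exoCDN2 and 127 and 212 CPM with CDN2, with a log2 ratio of -1.05 and an adjusted p of 0.179, and turned to 0.33 relative to the carriers. Neither gene overlapped between the arms and neither was called. Groups that did not overlap were common, since 31% of all genes were higher with exoCDN2 in both tumors and 29.9% lower.

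The genes upstream of this response were not called between the arms. Ifnb1, which encodes IFN-β, stood at 24.1 and 20.1 CPM with exoCDN2, at 14.0 and 54.9 CPM with CDN2 and at 0.132 and 0.120 CPM with PBS. The CDN2 tumors lay on either side of the exoCDN2 tumors, and the interval of the log2 ratio ran from -2.34 to 1.06 around -0.64. Ifnb1 was 172-fold above PBS with exoCDN2 and 267-fold with CDN2, both called. Tmem173, the gene of STING itself, had a log2 ratio of -0.15 with an interval from -0.49 to 0.19. Of 12 STING pathway genes tested, 9 were alike, against 52.1% of all genes, and 0 were called, a count that a list of this size gives at the background of 0.201% higher and 0.408% lower.

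The chemokine and checkpoint genes that follow interferon were also not called between the arms. Cxcl10, a ligand of the T cell receptor CXCR3, stood at 2584 and 2532 CPM with exoCDN2 and at 1601 and 2293 CPM with CDN2, against 72.2 and 76.0 CPM with PBS. Both exoCDN2 tumors were higher, but the log2 ratio of 0.39 had an interval from -0.41 to 1.19. Cxcl9, a second CXCR3 ligand, had a log2 ratio of -0.15, and Cd274, which encodes the checkpoint ligand PD-L1, one of -0.03. The sign of both small differences turned when 1 tumor was left out, and relative to the carriers Cxcl9 stood at 1.84 and Cd274 at 0.31. Of 19 genes inducible by interferon gamma, 17 had a negative ratio, with a median of -0.34 (-0.04 without the second CDN2 tumor). Of these, 0 were called, where 0.201% of all genes were called higher and 0.408% lower. Relative to the carriers their median turned to 0.95, with 18 of the 19 positive. Over all 494 genes called higher than PBS in at least 1 arm, 160 (32.4%) were alike, fewer than the 52.1% of all genes, and 19 were called in the direct comparison, against 103 of all 16927 genes. These genes were picked for a high level in at least 1 arm, which partly fixes both shares.

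**Figure D2:**
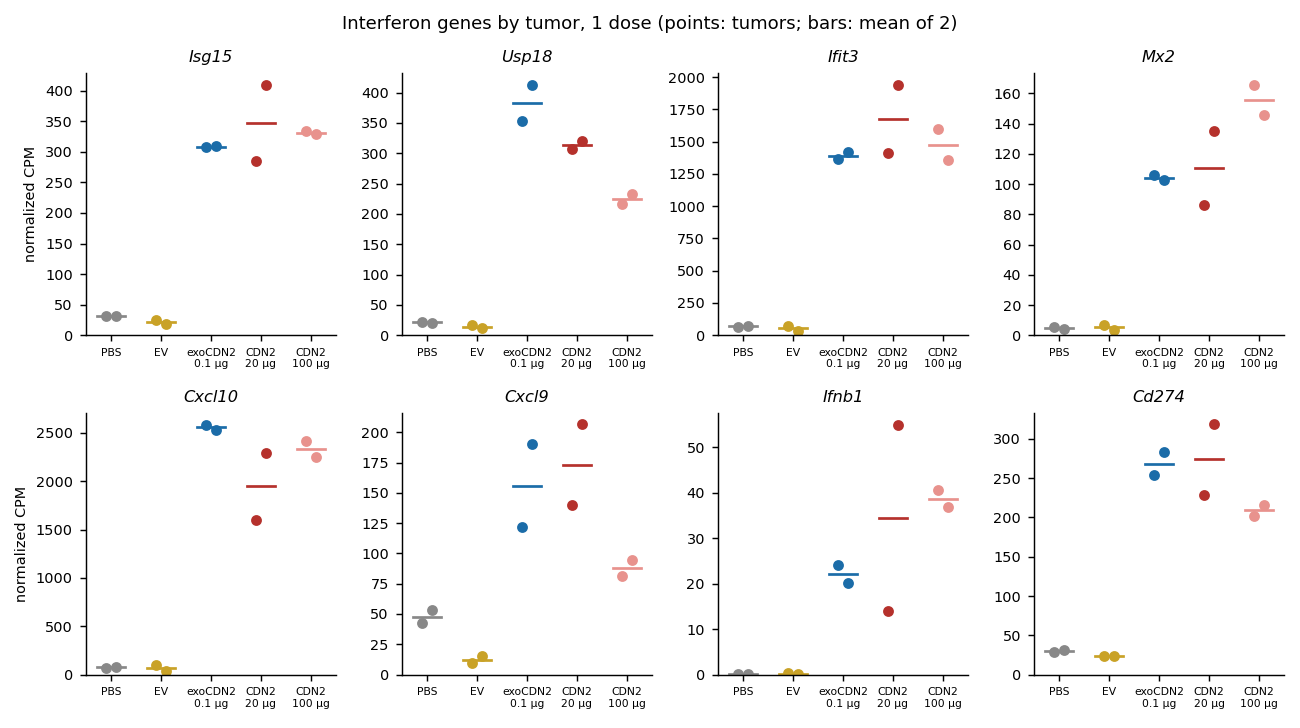
Normalized CPM (y axis, from 0) of 8 interferon-related genes in each of the 10 tumors given 1 dose, grouped by treatment; points are tumors and bars the mean of 2. For Isg15, both exoCDN2 tumors and both CDN2 tumors lie between 285 and 409 CPM, against 30.8 and 31.7 CPM with PBS.

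Promoter sequence is shown for these genes because the group moved together in both arms. The sequences are RefSeq promoters of GRCm38.p6, printed 5′ to 3′ on the strand of the gene, and the capitals mark matches to GAAA, any 2 bases and GAAA again, the core of an interferon-stimulated response element, read on either strand. Isg15 lies at chr4:156200856-156200915 (minus strand, 97 to 38 bases before the start) and Ifit3 at chr19:34583365-34583424 (plus strand, 164 to 105 bases before the start).
Isg15: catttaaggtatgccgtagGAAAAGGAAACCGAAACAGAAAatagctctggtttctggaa
Ifit3: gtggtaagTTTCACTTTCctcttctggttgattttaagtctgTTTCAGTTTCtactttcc
Matches can overlap, and the run in Isg15 holds 3 of them. In the 250 bases before the start, 12 of 42 promoters of the interferon list (28.6%) held this motif, against 2.98% of 32851 promoters, and 0 of 28 promoters of the vascular endothelial list. The promoters belong to 35 of the 49 list genes, and a match is a description of the letters only.

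Vessel genes were the main group that was higher with exoCDN2. Of 45 vascular endothelial genes tested, 7 were called higher than with CDN2 and 0 lower, against backgrounds of 0.201% and 0.408%. The median log2 ratio of the list was 1.11, and 41 of its 45 genes had a positive ratio. The difference came with a lower level after free agonist: against PBS, CDN2 (20 µg) had a list median of -1.27 with 20 genes called lower (background 0.886%), and exoCDN2 one of -0.05 with 4 called lower (background 0.425%). In whole tumors, fewer endothelial cells and less RNA of these genes per cell cannot be told apart. The larger amount of free agonist did not show the same fall: summed over the 45 genes, the level was 543 and 671 CPM with CDN2 (100 µg), 474 and 478 CPM with CDN2 (20 µg), 582 and 635 CPM with exoCDN2 and 676 and 667 CPM with PBS. Eng, described below, makes up 275 and 272 CPM of the CDN2 (20 µg) sums and runs against the list, so the sums show less difference than the median. The labels of the CDN2 libraries give the 2 amounts, and whether any of them is at fault was not tested. The 7 called genes were Pecam1, Cdh5, Kdr, Flt1, Emcn, Podxl and S1pr1.

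Pecam1 (ENSMUSG00000020717, GRCm38 chromosome 11, 106654217 to 106750628), the adhesion protein CD31 of endothelial junctions, stood at 35.2 and 35.6 CPM with exoCDN2 and at 11.4 and 13.7 CPM with CDN2. The PBS tumors had 29.5 and 32.8 CPM, the tumors given unloaded EVs 30.8 and 25.2 CPM, and those given CDN2 (100 µg) 30.7 and 43.2 CPM. The CDN2 (20 µg) tumors were thus the lowest of the 10, and no other group overlapped with them. The log2 ratio was 1.49 ± 0.25 (SE, n = 2 against 2), a 2.82-fold difference with an adjusted p of 0.0381 by edgeR's quasi-likelihood test. Against PBS, Pecam1 was 2.48-fold lower with CDN2 and within 1.14-fold with exoCDN2.

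Cdh5, the VE-cadherin that holds endothelial cells together, showed the same order. It stood at 30.4 and 30.8 CPM with exoCDN2, at 10.8 and 10.4 CPM with CDN2, and at 26.7 and 26.2 CPM with PBS. The unloaded EV tumors had 25.0 and 15.5 CPM and the CDN2 (100 µg) tumors 29.5 and 38.0 CPM. The log2 ratio of Cdh5 was 1.53 (interval 0.97 to 2.09).

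The receptors for VEGF, the main growth factor of vessels, were both among the called genes. Kdr, which encodes VEGFR2 (GRCm38 chromosome 5, 75932827 to 75978458), stood at 11.6 and 13.5 CPM with exoCDN2, 4.45 and 3.41 CPM with CDN2 and 17.4 and 17.1 CPM with PBS. Both arms lay below PBS, and the fall was the larger with CDN2, 4.39-fold (adjusted p = 6.4e-04 by edgeR) against 1.38-fold with exoCDN2, which was not called. The direct difference of Kdr was 3.18-fold. Flt1, which encodes VEGFR1, stood at 21.4 and 22.2 CPM with exoCDN2 and at 7.65 and 6.57 CPM with CDN2, a log2 ratio of 1.61, with PBS tumors at 20.1 and 17.6 CPM.

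Surface proteins of the vessel lumen followed. Emcn, the sialomucin endomucin, stood at 6.54 and 6.34 CPM with exoCDN2, 2.58 and 2.32 CPM with CDN2, and 6.51 and 6.44 CPM with PBS. Podxl, podocalyxin, which is also found on other cells, had a log2 ratio of 1.49. S1pr1, a receptor for sphingosine-1-phosphate that is also expressed by lymphocytes, stood at 13.9 and 13.1 CPM with exoCDN2 and 4.38 and 5.90 CPM with CDN2. Its PBS level of 8.15 and 7.69 CPM lay between the arms, and S1pr1 was called against PBS in neither.

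**Figure D3:**
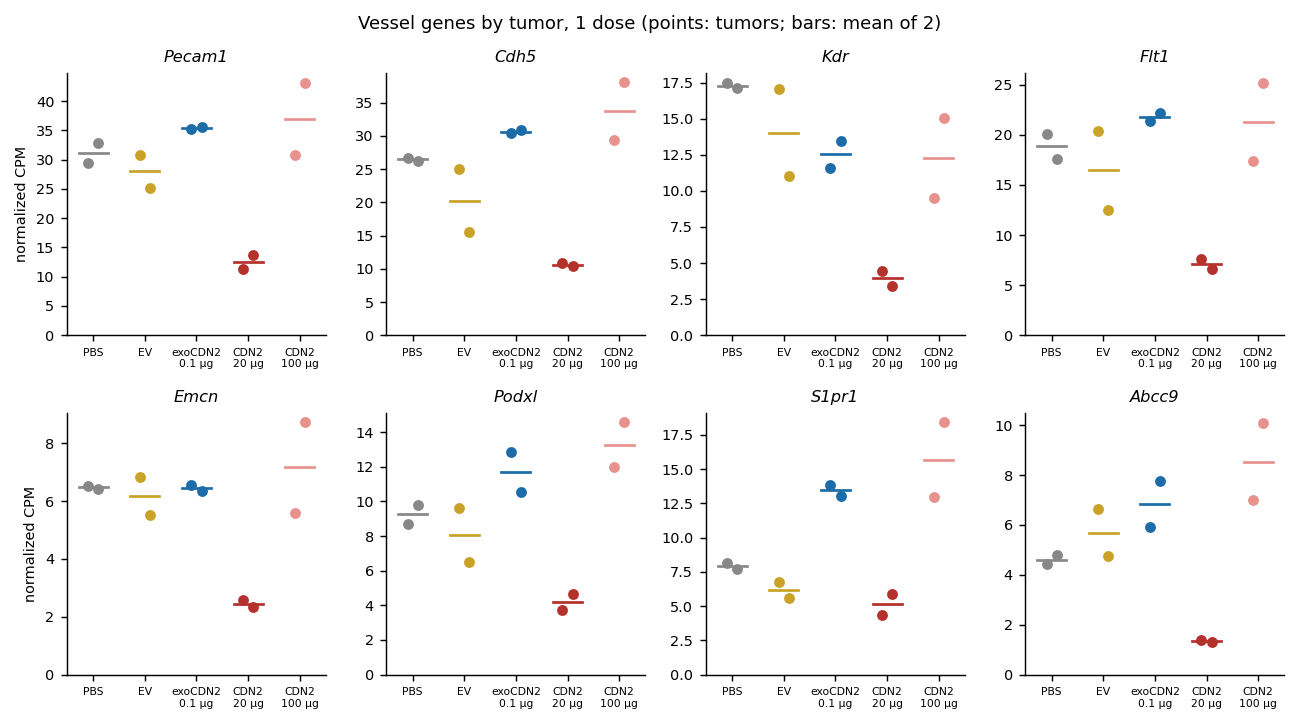
Normalized CPM (y axis, from 0) of 7 vascular endothelial genes and of the pericyte gene Abcc9 in each of the 10 tumors given 1 dose, grouped by treatment; points are tumors and bars the mean of 2. The CDN2 (20 µg) tumors are lowest in the Pecam1 panel at 11.4 and 13.7 CPM, and the other groups reach from 25.2 to 43.2 CPM.

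Not all of the list stood apart. Eng, the TGF-β co-receptor endoglin, stood at 190 and 239 CPM with exoCDN2 and 275 and 272 CPM with CDN2, with an interval of the log2 ratio from -0.91 to 0.20. Egfl7, a secreted endothelial protein, had a log2 ratio of 0.34 with an interval from 0.03 to 0.66. Both intervals lay inside 2-fold, as did those of 8 of the 45 genes in all. Cldn5, the claudin of endothelial tight junctions, was called lower than PBS in both arms, at 0.440 and 0.488 CPM with exoCDN2 and 0.650 and 0.643 CPM with CDN2 against 2.45 and 3.04 CPM with PBS. Apln, the apelin of sprouting tip cells, was also called lower than PBS in both, with 6.74 and 10.9 CPM in the exoCDN2 tumors, 3.60 and 2.60 CPM in the CDN2 tumors and 27.8 and 19.1 CPM in the PBS tumors. Its direct log2 ratio of 1.51 had an adjusted p of 0.0574 by edgeR. Erg, an endothelial transcription factor, had a log2 ratio of 1.86 with an adjusted p of 0.0616.

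The count of called vessel genes depended on the fit. DESeq2 called 22 of the 45 higher, among 195 called higher over all genes, and the fit on the 5 groups given 1 dose also 22, among 434, whereas the replicate block, each fit without 1 of the 4 tumors, and the difference taken relative to the carriers called 0. In the fits without 1 tumor, the list median stayed between 0.973 and 1.12, and 40 to 42 of the 45 genes were positive. Relative to the carriers, the median was 1.27 with 44 positive.

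Other genes known from vessel walls were among the 34 called higher, and were grouped here after their values were seen. Adgrf5, an adhesion G protein-coupled receptor of endothelium, had the largest evidence of any gene called higher: 24.2 and 22.3 CPM with exoCDN2, 5.48 and 7.13 CPM with CDN2 and 18.3 and 16.8 CPM with PBS. Its log2 ratio was 1.88 ± 0.22 (SE), 3.69-fold, with an adjusted p of 0.0339 by edgeR. Col4a1, Col15a1 and Nid2, components of the basement membrane under the endothelium, had log2 ratios of 1.08, 1.03 and 1.54. Pxdn, the peroxidase that crosslinks collagen IV, had one of 1.51, and Cd93, an endothelial lectin-like receptor, one of 1.03.

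Promoters are shown for Flt1 and Emcn, again RefSeq sequences of GRCm38.p6 on the strand of the gene, with capitals marking the letters AGGAAG on either strand, a form of the site bound by ETS factors, which include endothelial regulators. Flt1 lies at chr5:147726108-147726167 (minus strand, 156 to 97 bases before the start) and Emcn at chr3:137340877-137340936 (plus strand, 201 to 142 bases before the start).
Flt1: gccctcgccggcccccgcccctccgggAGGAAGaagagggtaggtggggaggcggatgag
Emcn: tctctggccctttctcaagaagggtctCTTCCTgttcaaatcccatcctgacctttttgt
The letters occurred in 17 of 28 promoters of the vascular list (60.7%), in 14 of 42 of the interferon list (33.3%) and in 29.5% of all promoters. The 28 promoters belong to 24 of the 45 genes.

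The mural cells around vessels gave a mixed picture. Of 14 pericyte and smooth muscle genes tested, 1 was called higher (0.201% of all genes), with a list median of 0.39 that fell to 0.25 without the first exoCDN2 tumor or with the replicate block. This was Abcc9, a subunit of the ATP-sensitive potassium channel of pericytes, at 5.92 and 7.76 CPM with exoCDN2, 1.38 and 1.31 CPM with CDN2 and 4.44 and 4.78 CPM with PBS. The ratio of Abcc9 was 5.07-fold. Of 18 fibroblast and matrix genes, 0 were called, where 0.201% of all genes were called higher and 0.408% lower. Their median was 0.72 (17 of 18 positive). It went to 0.42 without the first exoCDN2 tumor and to 0.13 (11 of 18 positive) relative to the carriers. Cacna1c, the pore of the L-type calcium channel found in smooth muscle among other cells, was called higher with a log2 ratio of 1.70.

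Growth factors and hypoxia genes were not called, where 0.201% of all genes were called higher and 0.408% lower. Of 16 vessel growth factor genes tested, 9 had a positive ratio and 7 a negative one. Their median was 0.34 (0.21 without the second exoCDN2 tumor and 0.52 without the second CDN2 tumor). Vegfa, the VEGF ligand of the 2 receptors above, stood at 67.8 and 62.5 CPM with exoCDN2 and 121 and 81.4 CPM with CDN2, with a log2 ratio of -0.63 and an adjusted p of 0.236 by edgeR. Pgf, placental growth factor, which binds VEGFR1, had a log2 ratio of -1.94 with an adjusted p of 0.0774. Of 23 hypoxia and glycolysis genes, 22 had a negative ratio, with a median of -0.62 (-0.31 without the first CDN2 tumor) and 0 called. The smallest p among them belonged to Bhlhe40, a hypoxia-induced repressor, whose adjusted p of 0.0383 passed while its log2 ratio of -0.92 stayed under the ratio limit. Slc2a1, the glucose transporter GLUT1, stood at 88.8 and 81.0 CPM with exoCDN2 and 213 and 169 CPM with CDN2, against 166 and 152 CPM with PBS, and was not called (adjusted p = 0.0871). Against PBS, the median of the hypoxia and glycolysis list was -0.53 with exoCDN2 and -0.0084 with CDN2, so the arm that stood apart from PBS was exoCDN2.

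Adhesion molecules that inflamed endothelium displays to leukocytes stood higher than PBS in the exoCDN2 tumors. Of 5 such genes tested, 4 were called higher than PBS with exoCDN2 (2.2% of all genes) and 1 with CDN2 (2.26%), with medians of 3.65 and 2.40 on the log2 scale. Sele, E-selectin, stood at 3.84 and 2.14 CPM with exoCDN2, 0.575 and 0.671 CPM with CDN2, and 0.110 and 0.120 CPM with PBS. Its direct log2 ratio of 2.26 had an adjusted p of 0.0795 by edgeR, so that the difference between the arms did not pass. Selp, P-selectin, stood at 18.8 and 7.57 CPM with exoCDN2 and 3.58 and 5.20 CPM with CDN2 (adjusted p = 0.172). None of the 5 genes was called between the arms, where 0.201% of all genes were called higher and 0.408% lower.

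**Figure D4:**
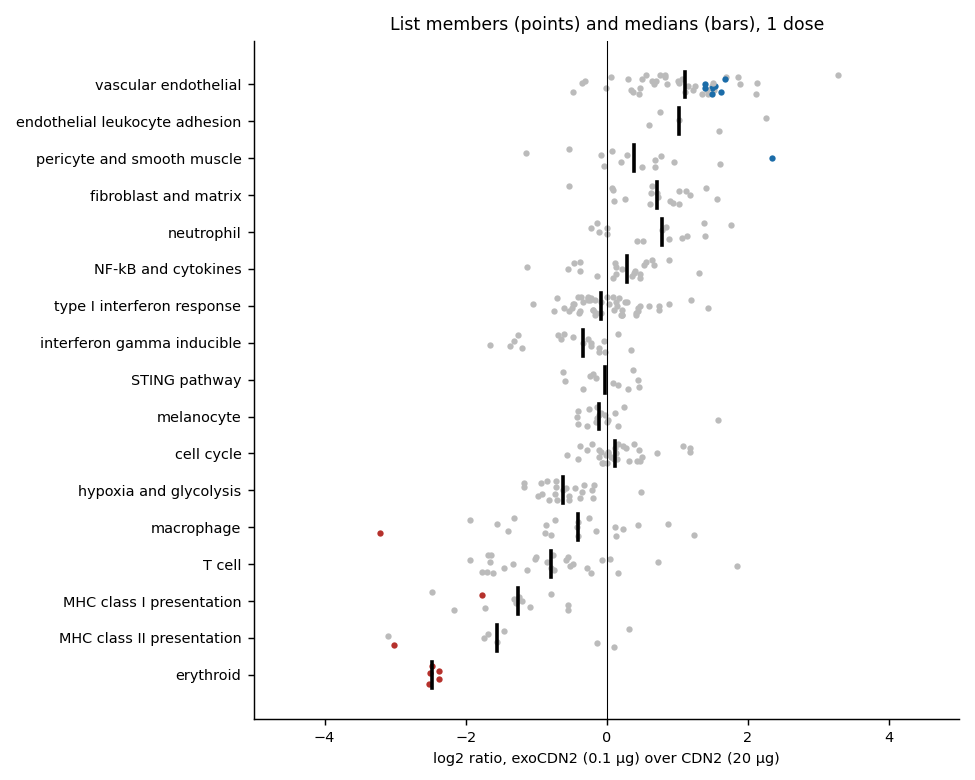
Each point is the log2 ratio of exoCDN2 (0.1 µg) over CDN2 (20 µg) of 1 gene (x axis), grouped by gene list (y axis), and each bar is the median of its list. The medians run from -2.48 for the erythroid list to 1.11 for the vascular endothelial list.

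Among 12 CC chemokines tested, 1, Ccl22, was called between the arms, higher with exoCDN2 (0.201% of all genes were). Without overlap, 5 of the 12 were higher with exoCDN2 and 1 lower, against 31% and 29.9% of all genes. Ccl22, a ligand of CCR4 that draws regulatory and Th2 cells and is made chiefly by dendritic cells and macrophages, stood at 5.66 and 6.46 CPM with exoCDN2 and 1.30 and 1.31 CPM with CDN2. It was 4.63-fold higher with exoCDN2 and was the only gene of the 34 that was also called above PBS in that arm, by 3.81-fold. The unloaded EV tumors had 4.60 and 6.74 CPM, as much as the loaded ones, and the PBS tumors 1.41 and 1.76 CPM. The exoCDN2 tumors thus overlapped with those given the vesicle alone. The neutrophil chemoattractant Cxcl5 stood at 12.7 and 15.1 CPM with exoCDN2 and 2.45 and 3.16 CPM with CDN2, and Il1b, interleukin-1β, at 55.6 and 37.3 CPM and 14.3 and 23.4 CPM. Both pairs were apart without passing the test (adjusted p = 0.157 and 0.315 by edgeR). Unloaded EVs alone gave 3.29 and 4.01 CPM of Cxcl5 and 4.58 and 2.09 CPM of Il1b, against 0.309 and 0.360 CPM and 0.927 and 1.22 CPM with PBS. Relative to these carriers the direction turned, with log2 values of -1.12 for Cxcl5 and -0.34 for Il1b, and the median of 6 neutrophil chemoattractants went from 0.51 to -1.05. The 0.51 itself was -0.05 without the first CDN2 tumor and 1.67 without the second. Of 22 NF-kB and cytokine genes, 14 were called above PBS with exoCDN2 and 15 with CDN2, against 2.2% and 2.26% of all genes. Between the arms 0 were called, where 0.201% of all genes were called higher and 0.408% lower.

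The 34 genes called higher were mostly set apart by low values in the CDN2 (20 µg) tumors. In 33 of them both CDN2 (100 µg) tumors lay above both CDN2 (20 µg) tumors, and in 33 both unloaded EV tumors did. Against PBS, 27 of the 34 were called lower with CDN2 (20 µg), where 0.886% of all genes were. With exoCDN2, 25 of the 34 stayed within 0.5 log2 units of PBS. Mest, an imprinted gene of the mesoderm, is an example, at 21.0 and 23.7 CPM with exoCDN2, 8.13 and 7.05 CPM with CDN2 (20 µg), 18.7 and 20.3 CPM with CDN2 (100 µg) and 24.2 and 25.2 CPM with PBS. Because the call itself picked genes with low values in the CDN2 (20 µg) tumors, the other groups lay above them partly by that choice. The share of all genes with these orders, or within 0.5 log2 units of PBS, was not counted. These counts therefore describe the 34 genes only. The called genes differed in length from the rest: the median transcript length was 5090 bases for genes called higher, 2102 for genes called lower and 3097 for all genes. Ratios rose with length, from a median of -0.22 in the shortest of 5 equal classes of genes to 0.20 in the longest, and fell with GC content from 0.24 to -0.28. With this trend removed from each library, 89 genes were called, 65 of them among the 103, and the vascular list had 8 called and a median of 1.11, while the calls of the erythroid list below fell from 5 to 2. The 13 vascular genes below the median length of all genes had a median of 0.70.

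Genes of red blood cells were lower with exoCDN2. All 5 erythroid genes tested were called, against 0.408% of all genes, with a median log2 ratio of -2.48. Against PBS, all 5 were called higher with CDN2 (median 3.67), where 2.26% of all genes were. With exoCDN2, 0 of the 5 were (median 1.21), against 2.2% of all genes. Hba-a1, an α-globin (GRCm38 chromosome 11, 32283511 to 32284465), stood at 62.2 and 93.3 CPM with exoCDN2, 280 and 588 CPM with CDN2 and 39.3 and 29.0 CPM with PBS. The CDN2 tumors differed from each other, and the lower of them was above every tumor given exoCDN2, PBS or unloaded EVs. The log2 ratio of Hba-a1 was -2.48 ± 0.48 (SE, n = 2 against 2), with an adjusted p of 0.0433 by edgeR, and CDN2 was 12.7-fold above PBS.

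The α-globin genes Hba-a1 and Hba-a2 are near-identical, as are the β-globins Hbb-bs and Hbb-bt, so reads may be split uncertainly between copies. Summed over the 4 globins, the level was 319 and 462 CPM with exoCDN2, 1266 and 2884 CPM with CDN2, 189 and 142 CPM with PBS, and 1000 and 1259 CPM with CDN2 (100 µg). Alas2, the erythroid enzyme that starts heme synthesis and has no such copy, followed them at 4.50 and 4.90 CPM with exoCDN2 and 17.0 and 36.9 CPM with CDN2. The globin levels thus ran together over the 5 genes and reached their highest values in the free agonist tumors. Without the second CDN2 tumor, the list median fell in size to -1.71, and with any 1 of the 4 tumors left out 0 of the 5 were called. With RLE factors 3 were called, with the length and GC trend removed 2 (median -2.17), and with the replicate block or relative to the carriers 0, while all 5 ratios stayed negative in each of these fits.

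The start of Hba-a1 and Hbb-bt is shown because all 5 genes of the list were called, with capitals marking GATAAG on either strand, a form of the site of GATA factors such as the erythroid GATA1. Hba-a1 lies at chr11:32283463-32283522 (plus strand, 209 to 150 bases before the start of the RefSeq transcript) and Hbb-bt at chr7:103814095-103814154 (minus strand, 231 to 172 bases before it).
Hba-a1: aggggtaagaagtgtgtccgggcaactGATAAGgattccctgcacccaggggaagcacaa
Hbb-bt: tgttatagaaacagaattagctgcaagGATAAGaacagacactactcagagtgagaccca
In the 250 bases before the start, 4 of 5 erythroid promoters held these letters, against 6.55% of all promoters.

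Of the 69 genes called lower with exoCDN2, 18 were called above PBS with CDN2 (2.26% of all genes) and 11 below PBS with exoCDN2 (0.425%). The call itself picked genes high with CDN2 and low with exoCDN2, which partly fixes both counts, so they describe the 69 genes only. In 40 of the 69, neither arm was called against PBS. Bbc3, which encodes the p53-induced death protein PUMA, stood at 8.16 and 8.45 CPM with exoCDN2 and at 19.9 and 19.1 CPM with CDN2. The PBS tumors had 8.12 and 8.47 CPM and the CDN2 (100 µg) tumors 23.4 and 19.4 CPM, so that both exoCDN2 tumors lay at the PBS level and all 4 tumors given free agonist lay above it, by 2.35-fold with CDN2 (20 µg). It was the only gene called of 23 cell death genes, where 0.408% of all genes were called lower, and 14 of the 23 were alike. Jun, an AP-1 transcription factor of the stress response, stood at 109 and 118 CPM with exoCDN2, 254 and 488 CPM with CDN2 and 45.7 and 44.2 CPM with PBS. Jund, a second AP-1 member, had a log2 ratio of -1.34. Among 22 stress and unfolded protein response genes, 13 were alike and 0 were called, where 0.201% of all genes were called higher and 0.408% lower. In neither list does the count of genes alike stand apart from the 52.1% of all genes.

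Several of the lower genes stood highest in the CDN2 (20 µg) tumors. Kcnj13, an inwardly rectifying potassium channel, had the lowest p of all genes called lower, at 17.9 and 16.8 CPM with exoCDN2 and 171 and 123 CPM with CDN2. PBS tumors had 36.9 and 28.3 CPM and CDN2 (100 µg) tumors 46.7 and 28.5 CPM, and the ratio was 8.46-fold in favour of CDN2 (20 µg). Esr1, the estrogen receptor, and Ptgds, a prostaglandin D synthase, had log2 ratios of -2.12 and -1.16. In 58 of the 69 genes both CDN2 (100 µg) tumors lay below both CDN2 (20 µg) tumors, again partly by the choice of genes high in the latter. The share of all genes in that order was not counted, so the count describes the 69 genes only. Gm42418, a locus that overlaps ribosomal RNA and so can follow the amount of ribosomal reads left in a library, stood at 93.0 and 122 CPM with exoCDN2 and 448 and 594 CPM with CDN2. It was also at 376 and 423 CPM with CDN2 (100 µg) and at 133 and 219 CPM with unloaded EVs, and its part in the other results was not tested.

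Antigen presentation genes leaned the same way. All 12 MHC class I presentation genes tested had a negative ratio, with a median of -1.26, and 1 was called (0.408% of all genes were called lower). H2-D1, a classical class I heavy chain whose reads can be shared with its relatives, stood at 438 and 592 CPM with exoCDN2, 1524 and 1986 CPM with CDN2 and 1109 and 1230 CPM with PBS. Unloaded EV tumors had 333 and 752 CPM and CDN2 (100 µg) tumors 366 and 455 CPM, both below PBS and near exoCDN2. H2-K1 and B2m, the light chain, had log2 ratios of -1.72 and -1.20 with adjusted p-values of 0.0540 and 0.0675 by edgeR. With DESeq2 or on the 5 groups given 1 dose, 9 of the 12 were called lower, where these fits called 188 and 250 of all genes lower. Taken relative to the carriers, the median of the list was -0.32, and 7 of the 12 were negative.

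Of the 9 MHC class II genes, 7 had a negative ratio, with a median of -1.55, and 1 was called lower (0.408% of all genes). The median ran from -2.05 without the first CDN2 tumor to -0.75 without the second, and was also -0.75 relative to the carriers. H2-DMb1, a chain of the peptide-loading chaperone H2-DM, stood at 7.14 and 10.9 CPM with exoCDN2, 53.4 and 93.2 CPM with CDN2 and 62.4 and 68.6 CPM with PBS. Here the CDN2 tumors were near PBS, and exoCDN2 was called 7.26-fold below it. The CDN2 (100 µg) tumors, at 7.71 and 10.8 CPM, were as low as those given exoCDN2. Unloaded EV tumors, at 13.8 and 37.9 CPM, also lay below PBS. H2-Aa, a class II α chain, was not called (adjusted p = 0.243).

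Macrophage and monocyte genes were split, with a positive ratio in 6 of 20 and in 5 of 10. Cx3cr1, the fractalkine receptor of nonclassical monocytes and macrophages, stood at 0.0800 and 0.139 CPM with exoCDN2, 0.750 and 1.31 CPM with CDN2 and 1.74 and 2.22 CPM with PBS. Cd300e, a receptor of the same monocytes, stood at 0.100 and 0.0697 CPM with exoCDN2 and 0.650 and 1.37 CPM with CDN2, against 1.77 and 1.94 CPM with PBS. Both genes have few counts, and both were called below PBS with exoCDN2. Unloaded EV tumors were as low in Cd300e, at 0.109 and 0.177 CPM, as were CDN2 (100 µg) tumors at 0.0739 and 0.250 CPM, and relative to the carriers its log2 value turned to 0.17. Cx3cr1 stood at 0.371 and 0.580 CPM with unloaded EVs. Against 0.408% of all genes, of 20 macrophage genes 1 was called lower (Cx3cr1), with a median of -0.41 (-0.18 without the second CDN2 tumor), and of 10 monocyte genes, 1 (Cd300e), with a median of 0.04 (-0.25 without the first CDN2 tumor and 0.45 without the second). C1qa, a complement gene of tissue macrophages, had a log2 ratio of -1.55 with an adjusted p of 0.0786. DESeq2 called 2 of the 10 monocyte genes higher and 1 lower, and 1 of the 20 macrophage genes higher and 5 lower. Over all genes it called 195 higher and 188 lower.

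**Figure D5:**
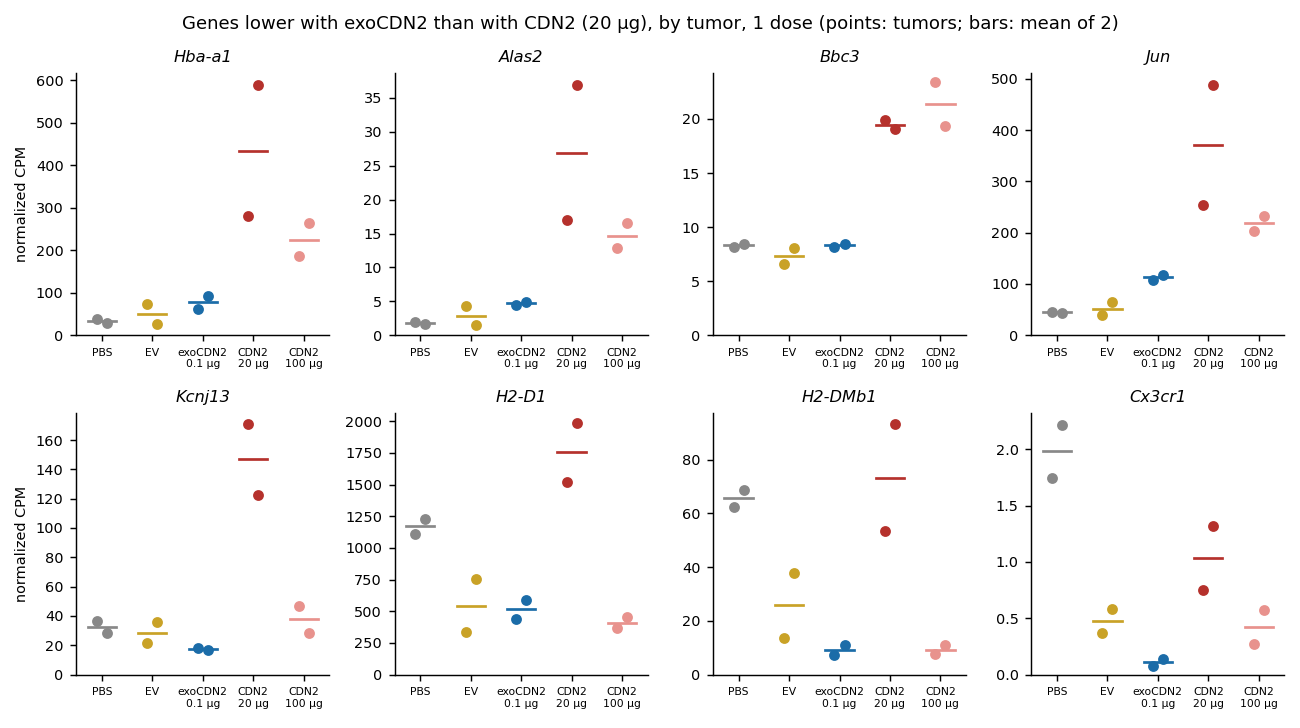
Normalized CPM (y axis, from 0) of 8 genes called lower with exoCDN2 than with CDN2 (20 µg), in each of the 10 tumors given 1 dose, grouped by treatment; points are tumors and bars the mean of 2. In the Kcnj13 panel the CDN2 (20 µg) tumors stand at 171 and 123 CPM and the exoCDN2 tumors at 17.9 and 16.8 CPM.

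No T cell or neutrophil gene of the lists was called between the arms, where 0.201% of all genes were called higher and 0.408% lower. This does not show that the arms were alike. Of 27 T cell genes, 23 had a negative ratio and 12 were lower with exoCDN2 without overlap (29.9% of all genes were), with a median of -0.80. That median ran from -1.22 without the first CDN2 tumor to -0.32 without the second. Cd8a, the CD8 α chain, stood at 0.180 and 0.929 CPM with exoCDN2 and 1.98 and 2.24 CPM with CDN2, an adjusted p of 0.200 by edgeR. The pairs of Cd8a did not overlap. Of 15 neutrophil genes, the median was 0.78, which ran from 0.29 without the first exoCDN2 tumor (0.32 without the first CDN2 tumor) to 1.35 without the second CDN2 tumor and was 0 (7 positive and 7 negative) relative to the carriers. Of 32 cell cycle genes, 26 were alike, against 52.1% of all genes, and 0 called, against 0.201% higher and 0.408% lower, and the proliferation marker Mki67, at 366 and 333 CPM with exoCDN2 and 169 and 139 CPM with CDN2, had a log2 ratio of 1.18 with an adjusted p of 0.293.

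Tissue around the tumor varied between tumors of 1 arm. The summed level of 16 skeletal muscle genes was 851 and 255 CPM with exoCDN2 and 112 and 358 CPM with CDN2. All 16 ratios were positive, with a median of 0.97, and 0 were called (0.201% of all genes higher, 0.408% lower). The value rested on single tumors: without the first exoCDN2 tumor the median was 0.03 with 9 of 16 positive, and it was 1.58 without the second exoCDN2 tumor, 0.42 without the first CDN2 tumor and 2.11 without the second. The summed level of 18 keratinocyte genes was 8.66 and 5.44 CPM with exoCDN2 and 19.7 and 7.74 CPM with CDN2. It was far higher in the PBS tumors, at 318 and 184 CPM, and was 148 and 5.07 CPM with unloaded EVs. The mitochondrial share of counts lay between 2.98% and 3.33% in the 4 tumors. Whether muscle or skin carried with a tumor has a part in the vessel or matrix values was not tested.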

How the data were processed

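RNA of whole tumors was sequenced. The authors used OSA for alignment (GRCm38) and RSEM with Ensembl gene models for quantification, and the deposited values are RSEM's expected counts, not normalized, so 8.75% to 12.7% of the values of a tumor were not whole. The values were rounded. Totals per tumor given 1 dose were 38671428 to 48465555. Confidence intervals come from the model. Groups were taken from the sample titles, with the amount in exoCDN2 from the treatment description. The 2 tumors given 2 doses of free CDN2 at an amount their labels do not state were left out.

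All 16 labelled tumors entered a single quasi-likelihood fit in edgeR (4.0.16, R 4.3.3), which gave each of the 8 groups its own mean, after filterByExpr (minimum count 10, minimum total 15) and TMM normalization. This left 16927 of 50600 genes. The common biological coefficient of variation was 0.22. Benjamini-Hochberg adjustment ran over all genes tested. Calls needed both an adjusted p below 0.05 and more than a 2-fold ratio, and a gene was described as alike where the 95% interval of the ratio lay within 2-fold. The procedure was tested on simulated data. The members and gene lists were chosen with earlier results of these data known.

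Genes named were the 12 higher and 12 lower with the smallest p among called genes whose groups did not overlap, the 8 with the smallest p called against PBS in both arms, up to 5 called members of each list (10 for vascular endothelial) or 3 by mean count, and 13 genes of prior interest. Not all are printed. Named outside this rule, with their values seen, were Apln, Bhlhe40, C1qa, Cd93, Cldn5, Col4a1, Cxcl5, Egfl7, Eif2ak2, Eng, Erg, Il1b, Jun, Jund, Mki67, Mlana, Nid2, Pgf, Sele, Slc2a1 and Zbp1. Coordinates and lengths are from GENCODE M21 (GRCm38), promoters from RefSeq (GRCm38.p6). Alternatives were DESeq2 (1.42.0), RLE factors, no filter, fewer groups in the fit, a replicate block, each tumor left out, no ratio limit, a band of 1.5-fold, the difference relative to carriers and, added after seeing the data, removal of the length and GC trend.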

Additional observations from a re-analysis of the deposited data

How the results depend on the processing

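The count of genes differing between exoCDN2 and CDN2 moved from 103 to 383 with DESeq2, 65 with RLE factors, 707 without the filter on low counts, 354 with only the groups compared, 684 with the 5 groups given 1 dose, 180 with no ratio limit and 0 relative to the carriers, where the smallest adjusted p was 0.133 and 1556 genes had an unadjusted p under 0.05. Of the 103 genes, DESeq2 kept 97, RLE 65, no filter 102, and both smaller fits 100 each. Leaving out each tumor in turn gave 0 to 1 genes (Pcdhgc4 without the second exoCDN2 tumor, Rnd3 without the first CDN2 tumor, neither of them a member of a list described here), with 1619 to 2739 genes at an unadjusted p under 0.05. The tumor that shares a group with the one left out is then assumed to vary like the other groups. With the replicate number as a block, edgeR called 0 genes (smallest adjusted p = 0.058, 3118 at an unadjusted p under 0.05), and same-numbered tumors of the 2 arms deviated with a correlation of -0.098 across genes (mean over all pairs of groups 0.0022), so the numbers were not taken to pair tumors.

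Genes changed by exoCDN2 against PBS (444) were 707 with DESeq2, 1166 without the filter, 1300 with only the groups compared, 876 with the 5 groups, and 146 to 251 without 1 tumor. Those changed by CDN2 (532) were 1076 without the filter, 933 with the 5 groups, and 167 to 555 without 1 tumor. Genes alike numbered 3452 within 1.5-fold, and 6921 to 7441 without 1 tumor.

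Without 1 tumor, list medians ran from 0.973 to 1.12 (vascular endothelial), -0.17 to 0.13 (type I interferon) and -2.90 to -1.71 (erythroid). Relative to the carriers, they were 1.27 and 0.488 for the first 2. Without 1 tumor, ratios that changed sign ran from -0.39 to 0.11 for Isg15, -0.36 to 0.27 for Mx2, -1.29 to 0.66 for Ifnb1, -0.51 to 0.15 for Cxcl9 and -0.23 to 0.23 for Cd274. Other settings also turned signs. Relative to the carriers the values were Eng 0.0035, Cd300e 0.17, Isg15 0.33, Ifit3 0.11, Cxcl9 1.84, Cd274 0.31 and Tmem173 0.061. In the same setting Zbp1 was 0.33, Cldn5 0.57, Il1b -0.34 and Cxcl5 -1.12. With the length and GC trend removed, Isg15 was 0.046. Not all of these ratios were small in the direct comparison, where the called gene Cd300e had -3.51. The turns in the fits without 1 tumor came with the second CDN2 tumor left out. For Cxcl9 and Cd274 they also came with the first exoCDN2 tumor left out (0.13 and 0.046). The causes were not tested. Among the other values of single genes, 692 stayed on their side of the threshold (called or not) in the same direction, 285 lost a call and 57 gained one, and 331 list medians moved by less than the spread between tumors against 65 by more.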
